A study of Mus musculus with 16 samples.

Results

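The 77 genes described here are the odorant receptors of mouse chromosome 2 whose Olfr number lies outside the range from Olfr986 to Olfr1274, with Olfr73 left out. They were chosen by probe set ID and symbol alone, so no measured value entered the choice. They are 77 of 1091 odorant receptors and of 19505 genes measured in the series. Each is measured by 1 probe set, and 1 of them, Olfr367-ps, carries the symbol of a pseudogene. By position in the RefSeq annotation, 28 of them form a cluster from Olfr338 to Olfr368 and 35 form a cluster from Olfr1275 to Olfr1318. The remaining 14 (Olfr154, Olfr52, Olfr228, Olfr141, Olfr259, Olfr153, Olfr152, Olfr74, Olfr48, Olfr140, Olfr32, Olfr1506, Olfr142 and Olfr1565) lie inside the large receptor cluster that separates the other two. For these 14, a label of smaller clusters holds by gene number but not by position. The cluster from Olfr338 to Olfr368 spans 1.048 Mb and holds 37 annotated receptors, of which 28 were measured. The cluster from Olfr1275 to Olfr1318 spans 0.937 Mb and holds 47 annotated receptors, of which 35 were measured.

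Odorant receptors are G protein-coupled receptors, and a mature olfactory sensory neuron typically expresses a single one of them from a single allele. The level of a receptor in a sorted population therefore follows how many neurons of that type the population holds and how much receptor mRNA each carries. In array values of sorted pools, fewer neurons of a type and less RNA per neuron cannot be told apart. S100a5, a calcium-binding protein, is expressed more strongly in olfactory sensory neurons that have been active, which is why its gene was used to drive a reporter of active neurons.

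The data were array values from cells sorted from the olfactory mucosa of C57BL/6 mice that carried an S100a5-tauGFP reporter, in which S100a5 drives a green fluorescent protein joined to tau. The mice, 24 of both sexes and aged 7 to 12 weeks, were kept singly for 40 h in chambers with a clean air flow of 3.1 L/min. From hour 26 they received, for 10 s in every 20 min, either bourgeonal, a floral aldehyde odorant, or filtered air, the vehicle. Cells of 3 mice were pooled, giving 4 bourgeonal pools and 4 filtered-air pools, and each pool was sorted by fluorescence into 2 libraries, which gave 16 libraries. The 4 groups of 4 libraries are bourgeonal titled GFP-, bourgeonal titled GFP+, filtered air titled GFP- and filtered air titled GFP+. For every library, the title and the cell type field of the labels name opposite gates. Libraries are called here by their titles, and the gate ratio is the log2 value in the library titled GFP- minus that in the library titled GFP+ of the same pool.

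In each of the 8 pools, S100a5 was higher on the side titled GFP-. It averaged 16.24 in bourgeonal libraries titled GFP- and 15.15 in bourgeonal libraries titled GFP+, a gate ratio of 1.09 (limma, adjusted p = 0.000282). In filtered air it averaged 16.10 in libraries titled GFP- and 15.14 in libraries titled GFP+, a gate ratio of 0.95 (adjusted p = 0.000822). The 4 activity-linked neuronal genes listed, S100a5 among them, were all called higher in libraries titled GFP- in both treatments, and 0 of 8 mature neuron genes were called in either treatment. All 7 measured neutrophil and myeloid genes were lower there. Their summed level on the log2 scale was 7.73 to 8.84 in bourgeonal libraries titled GFP-, against 18.4 to 18.7 in bourgeonal libraries titled GFP+. In filtered air it was 7.15 to 8.62 in libraries titled GFP-, against 17.6 to 18.8 in libraries titled GFP+. None of these genes was at or below background in all 4 groups. That does not show that they were above background in libraries titled GFP-, so the low sums may be bounds. Immature neuron genes were also lower, 4 of 5 in each treatment. So were all 4 microvillar genes in both treatments, and the sustentacular genes, 4 of 4 in bourgeonal and 3 of 4 in filtered air, and both measured erythroid genes. Markers of these other cell types were thus measured at higher level in the libraries titled GFP+, beside every gate ratio below, and their part in the receptors' ratios was not tested. Between 61 and 64 of the 77 receptors lay above the background guide in libraries titled GFP-, and between 69 and 73 did in libraries titled GFP+. The guide is the 95th percentile of 321 vomeronasal receptor genes in the same library, and it ran from 4.29 to 4.97 on the log2 scale.

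To show how alike these receptors are in DNA, windows from 250 bases before to 50 bases after the annotated gene start were taken from RefSeq (GRCm38.p6). A window was found for 68 of the 77 genes, 69 windows in all. In 60 of the 69, the annotated start is the ATG itself, directly after the 250 bases. For these genes the window is 250 bases before the start codon and 50 bases from it onward, and not a known promoter. Percent identity counts both parts. Of 2278 pairs of genes, 27 had windows at least 75% identical, all 27 within one cluster, and 18 genes took part in them. The windows of Olfr1283 (chr2:111368384-111368683, plus strand) and Olfr1287 (chr2:111448892-111449191, plus strand) are printed first because they are 94.7% identical while the receptors' gate ratios had opposite signs. Olfr1287 was dim, at or below background on the side titled GFP-, and its calls depended on the processing, as given below. In a gapped alignment 284 bases are identical, with 13 substitutions and 3 unmatched bases in each window. Capitals mark the 16 bases of each window that are not matched by an identical base.
Olfr1283: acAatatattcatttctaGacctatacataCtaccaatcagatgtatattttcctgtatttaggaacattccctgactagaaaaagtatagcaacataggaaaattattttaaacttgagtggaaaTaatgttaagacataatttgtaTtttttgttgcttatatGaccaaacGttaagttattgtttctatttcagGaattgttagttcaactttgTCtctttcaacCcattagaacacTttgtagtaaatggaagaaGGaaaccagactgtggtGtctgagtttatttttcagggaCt
Olfr1287: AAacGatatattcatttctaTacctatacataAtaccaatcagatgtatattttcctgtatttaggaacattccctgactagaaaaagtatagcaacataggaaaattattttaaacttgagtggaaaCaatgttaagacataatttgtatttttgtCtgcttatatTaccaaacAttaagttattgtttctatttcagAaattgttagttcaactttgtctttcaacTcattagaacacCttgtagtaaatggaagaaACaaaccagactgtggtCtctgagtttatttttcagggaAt

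Olfr1297 had the most negative gate ratio of the 77, and its window follows with those of Olfr1294 and Olfr1298, which are similar in sequence and had positive gate ratios. They lie on the minus strand at chr2:111538238-111538537 (Olfr1294), chr2:111622023-111622322 (Olfr1297) and chr2:111645946-111646245 (Olfr1298). The window of Olfr1297 is 79.0% identical to each of the other two. Capitals mark the start codon and, in Olfr1297, the motif TAATTA, a core that homeodomain factors can bind.
Olfr1294: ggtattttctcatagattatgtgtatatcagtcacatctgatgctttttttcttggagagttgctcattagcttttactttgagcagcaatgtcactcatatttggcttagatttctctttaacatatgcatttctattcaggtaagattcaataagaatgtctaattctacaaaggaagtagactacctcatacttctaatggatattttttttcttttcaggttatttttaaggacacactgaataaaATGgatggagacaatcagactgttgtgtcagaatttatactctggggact
Olfr1297: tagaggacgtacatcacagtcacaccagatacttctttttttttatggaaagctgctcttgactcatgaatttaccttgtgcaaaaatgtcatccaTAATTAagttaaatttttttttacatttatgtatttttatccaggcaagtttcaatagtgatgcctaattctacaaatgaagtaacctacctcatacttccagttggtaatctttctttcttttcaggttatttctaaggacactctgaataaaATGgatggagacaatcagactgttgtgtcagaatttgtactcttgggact
Olfr1298: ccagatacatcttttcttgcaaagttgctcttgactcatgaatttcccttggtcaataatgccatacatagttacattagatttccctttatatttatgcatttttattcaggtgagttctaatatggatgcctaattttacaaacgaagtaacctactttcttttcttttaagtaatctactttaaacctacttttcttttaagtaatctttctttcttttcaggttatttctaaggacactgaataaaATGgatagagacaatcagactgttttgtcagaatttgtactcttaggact

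Olfr341 and Olfr342 are neighbours among the measured receptors of the first cluster. Their windows are 81.7% identical and their gate ratios had opposite signs. They lie at chr2:36480079-36480378 on the minus strand (Olfr341) and chr2:36527164-36527463 on the plus strand (Olfr342). Capitals mark the start codon.
Olfr341: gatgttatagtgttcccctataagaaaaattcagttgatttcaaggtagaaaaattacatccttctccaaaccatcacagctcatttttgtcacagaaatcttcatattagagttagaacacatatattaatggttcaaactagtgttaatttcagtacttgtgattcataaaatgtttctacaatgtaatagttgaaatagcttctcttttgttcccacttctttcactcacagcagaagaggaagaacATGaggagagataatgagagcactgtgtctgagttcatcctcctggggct
Olfr342: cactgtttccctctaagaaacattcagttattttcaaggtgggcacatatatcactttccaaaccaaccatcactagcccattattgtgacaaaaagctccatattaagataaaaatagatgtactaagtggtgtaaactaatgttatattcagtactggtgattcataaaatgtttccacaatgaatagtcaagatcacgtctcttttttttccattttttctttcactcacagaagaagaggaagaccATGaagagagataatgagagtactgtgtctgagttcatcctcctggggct

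The last case is Olfr1506 (chr2:90224422-90224721, minus strand) and Olfr1565 (chr2:90321972-90322271, plus strand), whose windows are identical over all 300 bases. Their values were identical in all 16 libraries too, so both probe sets give 1 measurement, counted under both names below. No other odorant receptor shared its values with another gene, although 39 genes of the array, these included, did. The shared window is printed once, with TAATTA in capitals.
Olfr1506: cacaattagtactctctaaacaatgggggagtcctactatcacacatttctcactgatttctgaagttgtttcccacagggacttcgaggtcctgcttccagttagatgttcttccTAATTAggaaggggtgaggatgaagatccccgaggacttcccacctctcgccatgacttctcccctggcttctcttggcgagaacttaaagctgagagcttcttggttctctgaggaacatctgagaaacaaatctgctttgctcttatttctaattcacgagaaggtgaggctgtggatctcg

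TAATTA reads the same on both strands, which were searched together, and occurred in 16 of the 69 windows (23.2%), in 18.2% of 879 windows of other odorant receptors and in 5.29% of all 32851 windows. CCCNNGGG, a simplified form of the Olf1/Ebf site that also reads the same on both strands, occurred in 0 of the 69, in 3.3% of the other receptors' windows and in 13.7% of all windows. Among windows of receptors called in filtered air, TAATTA was present in 8 of 23 called higher in libraries titled GFP- and in 6 of 21 called lower. These matches describe letters in a window and not binding.

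The sort divided these receptors strongly and to both sides, in both treatments. In bourgeonal pools the gate ratio of 53 of 77 passed the test (limma, Benjamini-Hochberg over all genes, adjusted p under 0.05), 27 higher and 26 lower in libraries titled GFP-, where 18.1% of all genes passed, 7.82% higher and 10.2% lower. In filtered-air pools 49 of 77 passed, 26 higher and 23 lower, where 16.2% of all genes passed, 6.23% higher and 9.95% lower. That is 68.8% and 63.6% of these receptors, beside 65.5% and 62.8% of the 1014 other odorant receptors, so the share called is close to that of odorant receptors as a whole. With Olfr1506 and Olfr1565 counted once, the filtered-air calls were 25 higher and 23 lower. Most calls were of more than 2-fold, also where a receptor at or below background on one side was set at its bound and one at background on both sides was given no fold. On that basis 22 of the 27 higher and 22 of the 26 lower passed 2-fold in bourgeonal pools, and 19 of 26 and 19 of 23 did in filtered-air pools. The ratio kept the same sign in all 8 pools for 48 of 77 receptors, 25 higher and 23 lower, where 20.3% of all genes kept it.

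**Figure D1:**
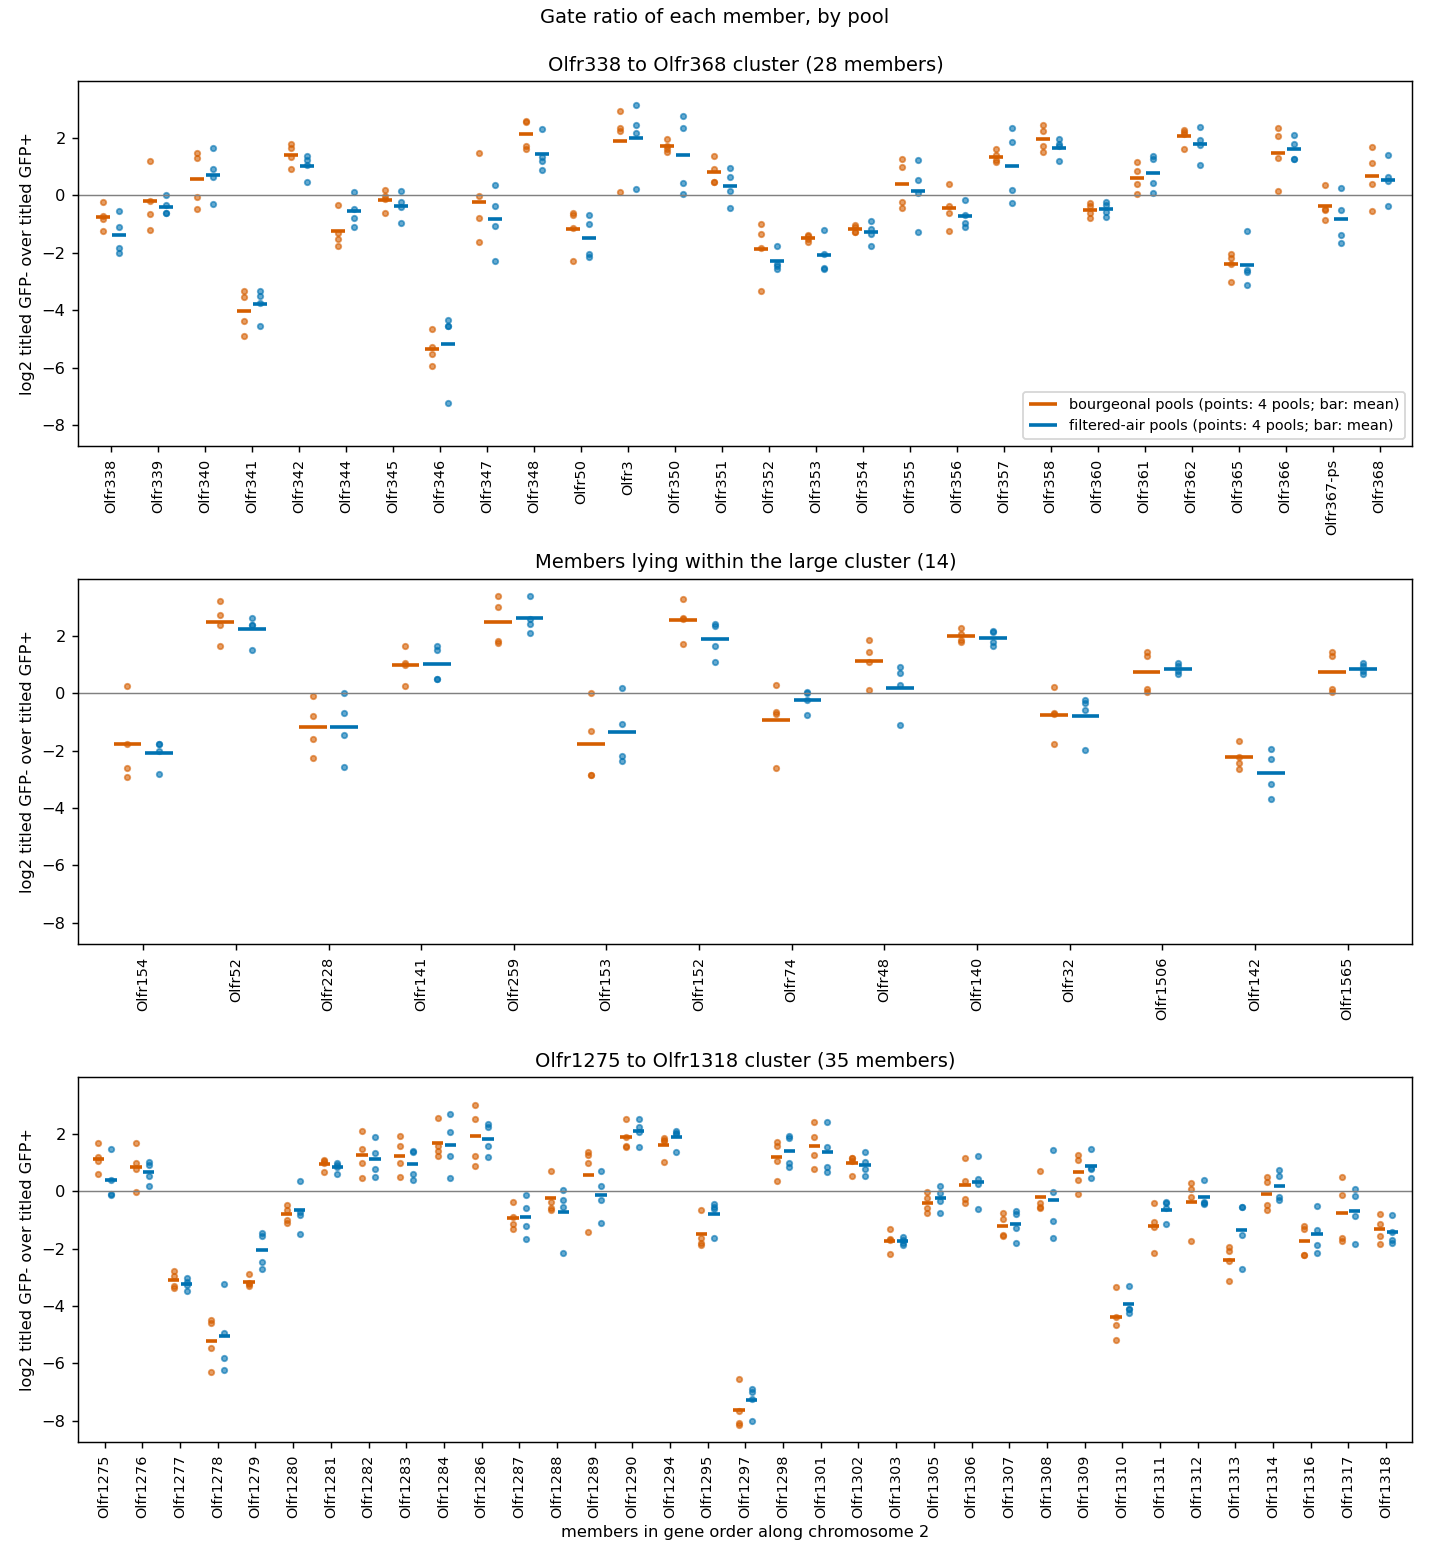
Gate ratio of every receptor, in gene order along chromosome 2, in 3 panels by position. Points are the 4 pools of a treatment (bourgeonal left, filtered air right) and bars are their means on the log2 scale. Receptors on opposite sides of 0 stand side by side in all 3 panels, and Olfr1297 reaches -7.61 in bourgeonal and -7.29 in filtered air.

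The spread was not even on both sides of 0. Gate ratios ran from -7.61 to 2.56 in bourgeonal and from -7.29 to 2.63 in filtered air. Ratios above 2 were found for 6 of 77 in bourgeonal (7.79%) and 4 of 77 in filtered air (5.19%), beside 19.2% and 15.6% of the other odorant receptors, whose ratios reached 5.80 and 5.49. Ratios below -2 were found for 10 of 77 (13.0%) and 12 of 77 (15.6%), beside 16.3% and 16.9% of the other receptors. These are fitted ratios, and with dim sides at their bound 8 and 7 of the 77 were below -2. The median ratio was -0.20 in bourgeonal and -0.23 in filtered air, against 0.36 and 0.25 for the other odorant receptors, 0.54 and 0.37 for the 206 chromosome 2 receptors numbered Olfr986 to Olfr1274, and 0.10 and 0.09 for all genes. With dim sides at their bound, the median over the 72 receptors with a value in bourgeonal was 0.0049, and over 71 in filtered air it was -0.14. In filtered air Olfr367-ps and Olfr1289, dim on the side titled GFP- alone, had no usable bound and were left out too. The level set for that side was above their mean on the side titled GFP+. The sign of the median also depends on scaling. Centring each library on its median raised the filtered-air median of all genes to 0.44 and turned the median of these receptors to 0.15 in bourgeonal and 0.12 in filtered air. These distributions are given as descriptions, with no test of the lists against each other.

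**Figure D2:**
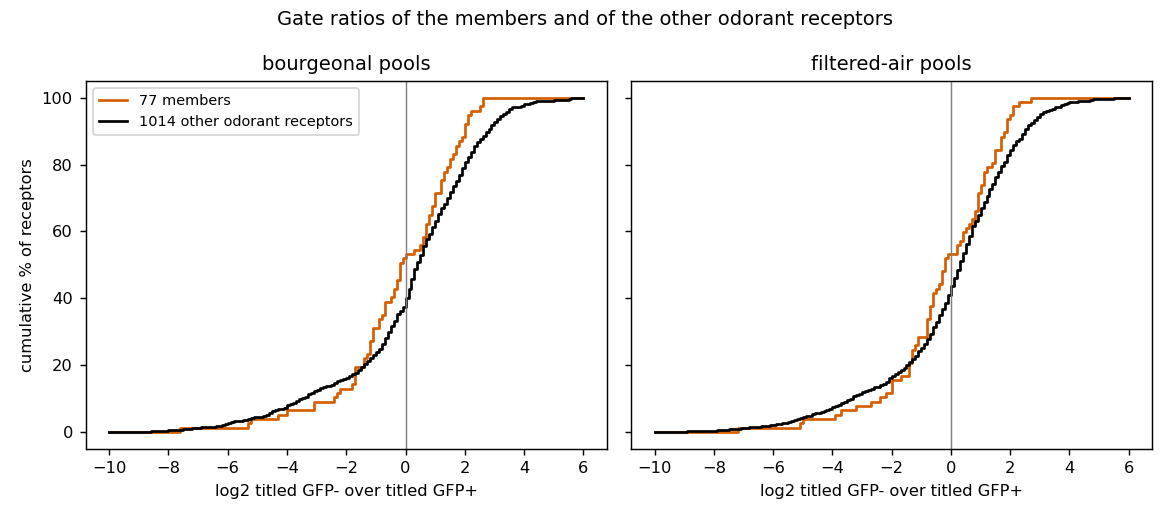
Cumulative percent of receptors (vertical axis) at or below each log2 gate ratio (horizontal axis), for the 77 receptors and the 1014 other odorant receptors, in bourgeonal pools (left) and filtered-air pools (right). The curve of the 77 ends at 2.56 and 2.63, and that of the other receptors runs on to 5.80 and 5.49.

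Olfr1297 stood furthest to one side. It measured 7.36, 6.43, 6.54 and 6.14 in bourgeonal libraries titled GFP-, against 13.90, 14.52, 14.70 and 13.80 in bourgeonal libraries titled GFP+. In filtered air it measured 6.68, 7.43, 6.48 and 6.96 in libraries titled GFP-, against 13.93, 14.34, 14.50 and 13.96 in libraries titled GFP+. All 8 libraries titled GFP- were low and all 8 titled GFP+ were high, with no overlap, and all lay above the background guide. The gate ratio was -7.61 ± 0.27 in bourgeonal (SE, n = 4 pools, limma adjusted p = 3.12e-08) and -7.29 ± 0.27 in filtered air (adjusted p = 4.21e-08), 196-fold and 157-fold lower. Each SE, here and below, comes from the fit of all 8 pools. Its variance is shared by both treatments, so the SE is equal in both and does not show the spread within either. Among all 1091 odorant receptors it ranked 7 and 10 from the most negative ratio.

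Other receptors of the Olfr1275 to Olfr1318 cluster fell to the same side. Olfr1278 measured 4.96, 5.74, 4.25 and 4.33 in bourgeonal libraries titled GFP-, against 9.46, 10.33, 9.71 and 10.62 in those titled GFP+, and 5.77, 5.53, 4.06 and 4.46 in filtered-air libraries titled GFP-, against 9.01, 10.45, 10.28 and 10.28 in those titled GFP+. Its gate ratio was -5.21 ± 0.44 in bourgeonal and -5.06 ± 0.44 in filtered air (SE, n = 4 pools each, limma adjusted p = 1.06e-05 and 1.47e-05). The gates did not overlap in either treatment, although 2 libraries titled GFP- of each treatment were near 4, below the background guide. The mean of Olfr1278 in libraries titled GFP- was 4.82 in bourgeonal and 4.95 in filtered air, close to the guide, so both ratios may be little more than bounds. Olfr1310 measured 5.29, 5.09, 6.32 and 5.83 in bourgeonal libraries titled GFP-, against 10.47, 9.77, 9.65 and 10.20 in those titled GFP+, and 6.78, 5.96, 4.80 and 6.07 in filtered-air libraries titled GFP-, against 10.09, 10.05, 8.91 and 10.32 in those titled GFP+. Its gates did not overlap either, and its ratio was -4.39 ± 0.26 in bourgeonal and -3.94 ± 0.26 in filtered air (limma adjusted p = 8.41e-07 and 2.07e-06). Olfr1277 had the smallest spread of these. It measured 7.28, 7.61, 7.50 and 7.84 in bourgeonal libraries titled GFP-, against 10.66, 10.91, 10.29 and 10.78 in those titled GFP+, and 7.18, 7.70, 7.03 and 7.32 in filtered-air libraries titled GFP-, against 10.33, 10.97, 10.05 and 10.80 in those titled GFP+. Every library titled GFP- was below every library titled GFP+, with a ratio of -3.10 ± 0.14 in bourgeonal and -3.23 ± 0.14 in filtered air (limma adjusted p = 1.10e-07 and 9.83e-08).

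In the Olfr338 to Olfr368 cluster the lowest ratios were those of Olfr346 and Olfr341, both of which were at or below background in libraries titled GFP-. Olfr346 measured 3.58, 2.99, 3.10 and 4.13 in bourgeonal libraries titled GFP-, against 8.87, 8.95, 8.63 and 8.80 in those titled GFP+, and 4.44, 3.73, 3.82 and 2.73 in filtered-air libraries titled GFP-, against 8.98, 8.29, 8.15 and 9.96 in those titled GFP+. The gates stood apart in both treatments. Because the low side gives only a bound, Olfr346 was at least 16.03-fold lower in bourgeonal and at least 15.6-fold lower in filtered air, with fitted ratios of -5.36 ± 0.42 and -5.17 ± 0.42 (limma adjusted p = 5.89e-06 and 8.61e-06). The SD of its ratio over the pools of a treatment was 0.54 in bourgeonal and 1.38 in filtered air. The bound sets the mean of the libraries titled GFP+ against the background guide, or the receptor's own value where that is higher, in the libraries titled GFP-. Olfr341 measured 3.65, 3.75, 3.91 and 3.20 in bourgeonal libraries titled GFP-, against 7.19, 7.08, 8.83 and 7.59 in those titled GFP+, and 3.69, 3.85, 4.41 and 3.32 in filtered-air libraries titled GFP-, against 7.19, 7.18, 8.16 and 7.85 in those titled GFP+. It was at least 7.28-fold lower in bourgeonal and at least 6.54-fold lower in filtered air, again without overlap (limma adjusted p = 1.85e-06 and 3.35e-06).

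Olfr365, in the same cluster, was measured above background on both sides. It read 7.51, 9.34, 8.82 and 8.82 in bourgeonal libraries titled GFP-, against 10.52, 11.39, 10.99 and 11.20 in those titled GFP+, and 7.21, 9.63, 8.82 and 8.88 in filtered-air libraries titled GFP-, against 10.32, 10.87, 11.49 and 11.49 in those titled GFP+. The first pool of each treatment was the lowest on the side titled GFP-, and the gates did not overlap. The ratio was -2.41 ± 0.27 in both treatments (SE, n = 4 pools, limma adjusted p = 9.02e-05 in bourgeonal and 0.000101 in filtered air). Its SD over the pools of a treatment was 0.42 in bourgeonal and 0.81 in filtered air. Olfr352, Olfr142 and Olfr154 completed the 10 lowest ratios of filtered air, each at or below background in libraries titled GFP- of both treatments. Olfr352 was at least 2.15-fold lower in bourgeonal and at least 2.98-fold lower in filtered air. Olfr142 was at least 2.53-fold and at least 3.19-fold lower, and Olfr154 at least 2.64-fold and at least 3.40-fold lower, in the same order. Olfr154 is the one of the 10 whose ratio was not negative in every pool. In bourgeonal pools it read 4.22, 4.04, 4.68 and 4.87 in libraries titled GFP-, against 5.98, 6.97, 7.28 and 4.62 in those titled GFP+, so the fourth pool ran the other way. The bourgeonal call of Olfr154 (adjusted p = 0.0152) was lost without bourgeonal pool 1, 2 or 3 (0.0509, 0.0812 and 0.0789).

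**Figure D3:**
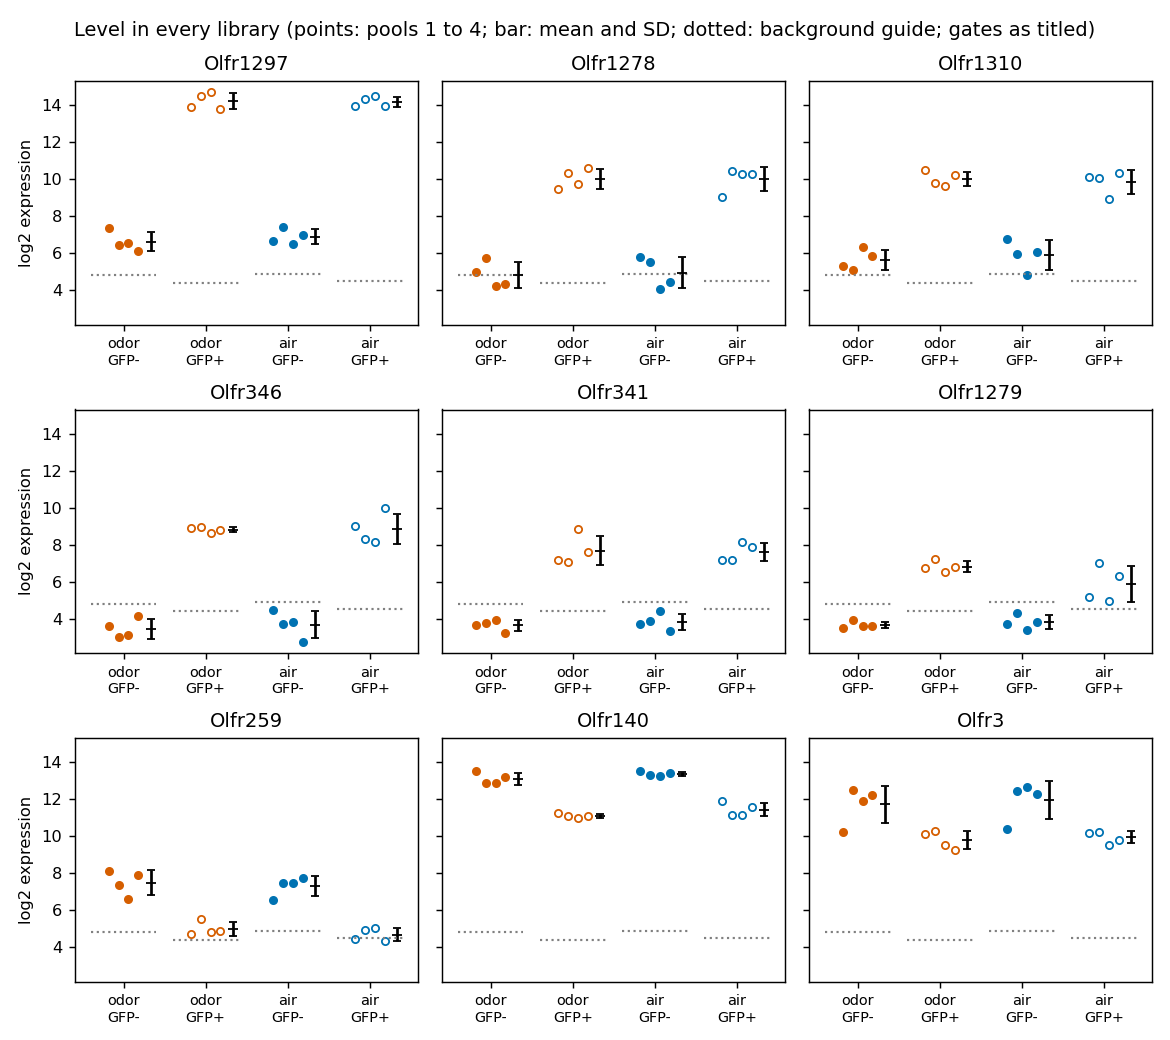
Log2 level of 9 receptors in every library. The 4 groups on each horizontal axis are bourgeonal (odor) titled GFP- and titled GFP+, then filtered air titled GFP- and titled GFP+. Points are pools 1 to 4 in order, bars show mean and SD, and the dotted lines mark the mean background guide of the group. Olfr1297, Olfr1278, Olfr1310, Olfr346, Olfr341 and Olfr1279 are low in every library titled GFP-, and Olfr259 and Olfr140 are higher there. Olfr3 is higher there by group mean, with its bourgeonal library 1 titled GFP- among those titled GFP+.

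Olfr152, Olfr259 and Olfr52, the 3 highest gate ratios of bourgeonal, lie inside the large cluster. Olfr259 measured 8.10, 7.34, 6.60 and 7.91 in bourgeonal libraries titled GFP-, against 4.69, 5.50, 4.84 and 4.90 in those titled GFP+, and 6.54, 7.49, 7.45 and 7.74 in filtered-air libraries titled GFP-, against 4.43, 4.90, 5.02 and 4.35 in those titled GFP+. The gates did not overlap, and the side titled GFP+ lay near the background guide. Its ratio was 2.51 ± 0.29 in bourgeonal and 2.63 ± 0.29 in filtered air, 5.68-fold and 6.18-fold higher (SE, n = 4 pools, limma adjusted p = 0.000115 and 9.24e-05). Olfr52 measured 9.30, 9.69, 8.99 and 8.47 in bourgeonal libraries titled GFP-, against 7.65, 6.97, 6.62 and 5.25 in those titled GFP+, and 8.87, 9.63, 8.85 and 9.38 in filtered-air libraries titled GFP-, against 7.35, 7.23, 6.45 and 6.76 in those titled GFP+. Olfr152 measured 8.76, 8.93, 8.33 and 9.04 in bourgeonal libraries titled GFP-, against 7.03, 6.31, 5.75 and 5.73 in those titled GFP+, and 7.95, 8.44, 8.57 and 8.34 in filtered-air libraries titled GFP-, against 6.84, 6.77, 6.17 and 6.00 in those titled GFP+. For both, every library titled GFP- was above every library titled GFP+. The ratio of Olfr52 was 2.49 ± 0.24 in bourgeonal and 2.24 ± 0.24 in filtered air (limma adjusted p = 3.51e-05 and 8.75e-05), and that of Olfr152 was 2.56 ± 0.26 and 1.88 ± 0.26 (limma adjusted p = 4.91e-05 and 0.000525).

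Olfr140, also inside the large cluster, had the smallest SE among the 10 highest ratios of filtered air. It measured 13.53, 12.86, 12.84 and 13.19 in bourgeonal libraries titled GFP-, against 11.25, 11.09, 10.98 and 11.11 in those titled GFP+, and 13.52, 13.30, 13.25 and 13.39 in filtered-air libraries titled GFP-, against 11.88, 11.14, 11.12 and 11.58 in those titled GFP+. All libraries titled GFP- were higher, with ratios of 2.00 ± 0.14 in bourgeonal and 1.94 ± 0.14 in filtered air (SE, n = 4 pools, limma adjusted p = 2.44e-06 and 3.43e-06). Olfr48, next to it in gene order among these receptors, did not do the same. It measured 10.61, 11.69, 11.57 and 12.53 in bourgeonal libraries titled GFP-, against 10.49, 10.60, 10.13 and 10.68 in those titled GFP+. In filtered air it measured 10.60, 11.54, 11.16 and 11.68 in libraries titled GFP-, against 11.72, 10.82, 10.25 and 11.38 in those titled GFP+. Its gates overlapped in both treatments, and the ratio of 1.12 ± 0.34 in bourgeonal passed (limma adjusted p = 0.0427), while that of 0.20 ± 0.34 in filtered air did not (adjusted p = 0.742). The bourgeonal call of Olfr48 was lost when bourgeonal pool 2, 3 or 4 was left out (adjusted p = 0.113, 0.148 and 0.167), when filtered-air pool 2 or 4 was left out (0.0510 and 0.0596), and with a trended, robust prior (0.0883).

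In the Olfr338 to Olfr368 cluster the higher receptors included Olfr362, Olfr3, Olfr358, Olfr348 and Olfr342. Olfr362 measured 11.38, 11.64, 11.48 and 11.17 in bourgeonal libraries titled GFP-, against 9.76, 9.35, 9.34 and 8.95 in those titled GFP+, and 11.08, 11.69, 11.62 and 11.71 in filtered-air libraries titled GFP-, against 10.04, 9.32, 9.86 and 9.76 in those titled GFP+. Its gates did not overlap, and the ratio was 2.06 ± 0.20 in bourgeonal and 1.78 ± 0.20 in filtered air (limma adjusted p = 3.16e-05 and 0.000108). Olfr358 rose by 1.99 ± 0.18 and 1.67 ± 0.18 (adjusted p = 2.02e-05 and 8.58e-05), Olfr348 by 2.13 ± 0.24 and 1.44 ± 0.24 (0.000105 and 0.00193), and Olfr342 by 1.43 ± 0.18 and 1.03 ± 0.18 (0.000260 and 0.00276), bourgeonal before filtered air. All 3 were higher in libraries titled GFP- in 8 of 8 pools.

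Olfr3 varied widely between pools. It measured 10.24, 12.51, 11.87 and 12.20 in bourgeonal libraries titled GFP-, against 10.12, 10.28, 9.52 and 9.26 in those titled GFP+, and 10.40, 12.41, 12.67 and 12.27 in filtered-air libraries titled GFP-, against 10.16, 10.24, 9.53 and 9.80 in those titled GFP+. The library titled GFP- of the first pool was low in both treatments, within those titled GFP+ in bourgeonal and just above them in filtered air. Its ratio was 1.91 ± 0.49 in bourgeonal and 2.00 ± 0.49 in filtered air (limma adjusted p = 0.0205 and 0.0174). With a trended, robust prior neither passed (adjusted p = 0.0736 and 0.0725), and leaving out pool 2, 3 or 4 of a treatment took the call in that treatment (adjusted p = 0.0822 to 0.0941 in bourgeonal and 0.0657 to 0.0876 in filtered air).

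In the Olfr1275 to Olfr1318 cluster the higher receptors included Olfr1290, Olfr1286, Olfr1294, Olfr1301, Olfr1298 and Olfr1281. Olfr1290 measured 10.23, 9.78, 9.47 and 9.36 in bourgeonal libraries titled GFP-, against 8.34, 7.25, 7.94 and 7.78 in those titled GFP+, and 9.99, 10.03, 9.91 and 9.57 in filtered-air libraries titled GFP-, against 7.75, 7.49, 7.85 and 8.02 in those titled GFP+. Its gates did not overlap, and the ratio was 1.89 ± 0.20 in bourgeonal and 2.10 ± 0.20 in filtered air (limma adjusted p = 5.73e-05 and 2.87e-05). Olfr1294 rose by 1.61 ± 0.17 and 1.88 ± 0.17 (adjusted p = 6.76e-05 and 2.39e-05), Olfr1286 by 1.92 ± 0.33 and 1.84 ± 0.33 (0.00197 and 0.00285), and Olfr1281 by 0.95 ± 0.12 and 0.84 ± 0.12 (0.000291 and 0.000792), bourgeonal before filtered air. Each was higher in libraries titled GFP- in 8 of 8 pools, as was Olfr1301, at 1.58 ± 0.31 and 1.37 ± 0.31 (0.00440 and 0.0109). The filtered-air call of Olfr1301 was lost without filtered-air pool 3 (0.0516).

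Olfr360 and Olfr1312 were named for their mean signal. Olfr360, in the Olfr338 to Olfr368 cluster, differed little between the gates. Its ratio was -0.51 ± 0.14 in bourgeonal and -0.46 ± 0.14 in filtered air (limma adjusted p = 0.0265 and 0.0453), negative in 8 of 8 pools, and both calls were lost without the pool as a block (0.312 and 0.388). Both were also lost when libraries were centred (0.307 and 0.497), when bourgeonal pool 1, 2 or 3 was left out, and, in filtered air, when any of its own 4 pools was left out (0.0552 to 0.167). Olfr1312 did not pass, at -0.39 ± 0.29 in bourgeonal and -0.21 ± 0.29 in filtered air (adjusted p = 0.403 and 0.696).

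By position, both smaller clusters held receptors of both directions in like number. In the Olfr338 to Olfr368 cluster 9 of 28 were called higher and 9 lower in bourgeonal, and 8 higher and 9 lower in filtered air. In the Olfr1275 to Olfr1318 cluster 12 of 35 were called higher and 14 lower in bourgeonal, and 11 higher and 12 lower in filtered air. Of the 14 receptors inside the large cluster, 6 were called higher and 3 lower in bourgeonal, and 7 higher and 2 lower in filtered air. Both Olfr1506 and Olfr1565, which are 1 measurement, are among these 14 and among the 7 called higher in filtered air. The median ratio of these 14 was 0.73 in bourgeonal and 0.53 in filtered air, against -0.17 and -0.37 in the Olfr338 to Olfr368 cluster and -0.22 and -0.25 in the Olfr1275 to Olfr1318 cluster. With Olfr1506 and Olfr1565 counted once, the median of those inside the large cluster stayed at 0.73 in bourgeonal. In filtered air it became 0.20, the ratio of Olfr48. Both directions together, 65.5% of the 1014 other odorant receptors were called in bourgeonal and 62.8% in filtered air, and 18.1% and 16.2% of all genes were. The difference between positions was not tested.

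Neighbours along the chromosome differed widely. Neighbours here are consecutive among the measured receptors, and annotated receptors that were not measured can lie between them. Over 61 pairs of neighbouring receptors within both smaller clusters, the median gap between their gate ratios was 1.45 log2 units in bourgeonal and 1.43 in filtered air. Within the Olfr338 to Olfr368 cluster the median gap was 1.80 in bourgeonal and 1.59 in filtered air between neighbours, beside 1.64 and 1.62 over all pairs of that cluster. Within the Olfr1275 to Olfr1318 cluster it was 1.32 and 1.29 between neighbours, beside 1.83 and 1.61 over all pairs. In bourgeonal 14 neighbouring pairs were called in opposite directions and 18 in the same direction, and in filtered air 12 and 14 were. These counts were not set beside those of pairs that are not neighbours, so they do not show a trait of neighbours. The largest gap was between Olfr1297 and Olfr1298, 8.80 in bourgeonal and 8.70 in filtered air. Olfr1298 measured 10.32, 10.24, 9.57 and 10.36 in bourgeonal libraries titled GFP-, against 9.94, 8.64, 7.83 and 9.32 in those titled GFP+, and 10.45, 10.84, 10.49 and 10.63 in filtered-air libraries titled GFP-, against 9.45, 8.93, 8.61 and 9.79 in those titled GFP+. It was thus higher in libraries titled GFP- in 8 of 8 pools, at 1.19 ± 0.25 and 1.41 ± 0.25 (limma adjusted p = 0.00731 and 0.00273), where Olfr1297 was lower in 8 of 8. By the filtered-air gap, the next were Olfr1295 and Olfr1297, at 6.12 in bourgeonal and 6.49 in filtered air, and Olfr1309 and Olfr1310, at 5.06 and 4.82. In bourgeonal the gap of Olfr1309 and Olfr1310 was exceeded by those of Olfr341 and Olfr342 (5.47), Olfr345 and Olfr346 (5.22) and Olfr346 and Olfr347 (5.13), which use fitted ratios of receptors at background. The 3 smallest gaps of filtered air were 0.033 between Olfr1298 and Olfr1301, 0.157 between Olfr1287 and Olfr1288 and 0.175 between Olfr1282 and Olfr1283. In bourgeonal these pairs had gaps of 0.396, 0.707 and 0.026.

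Olfr1283 and Olfr1287, and Olfr341 and Olfr342, had similar windows and gate ratios of opposite sign, and were chosen for printing because of it. Olfr1283 measured 9.01, 9.76, 8.54 and 9.88 in bourgeonal libraries titled GFP-, against 8.03, 9.25, 6.97 and 7.95 in those titled GFP+, and 9.21, 9.20, 9.58 and 9.50 in filtered-air libraries titled GFP-, against 8.80, 8.61, 8.22 and 8.08 in those titled GFP+. It was higher in libraries titled GFP- in 8 of 8 pools, at 1.24 ± 0.24 in bourgeonal and 0.94 ± 0.24 in filtered air (limma adjusted p = 0.00485 and 0.0241). Olfr1287 measured 4.59, 4.32, 5.04 and 3.78 in bourgeonal libraries titled GFP-, against 4.96, 5.63, 6.16 and 4.69 in those titled GFP+, and 4.44, 4.29, 3.88 and 3.94 in filtered-air libraries titled GFP-, against 4.57, 5.94, 4.46 and 5.15 in those titled GFP+. It was lower in 8 of 8 pools, with the mean of the side titled GFP- at or below background in both treatments, at -0.93 ± 0.24 and -0.89 ± 0.24 (limma adjusted p = 0.0207 and 0.0269). On the bound of the low side it was at least 1.42-fold lower in bourgeonal and at least 1.10-fold lower in filtered air. Without the pool as a block Olfr1287 did not pass (adjusted p = 0.0830 and 0.104), and neither did Olfr1283 in filtered air (0.105). Centring each library on its median also took both calls of Olfr1287 (limma adjusted p = 0.0517 in bourgeonal and 0.0662 in filtered air). Olfr1287 also lost its call without bourgeonal pool 2, 3 or 4 (0.0990, 0.0854 and 0.0611) and without filtered-air pool 2 or 4 (0.126 and 0.110), and Olfr1283 lost its filtered-air call without pool 3 or 4 (0.106 and 0.109). Olfr341, at least 7.28-fold and 6.54-fold lower, stood beside Olfr342, 2.69-fold and 2.05-fold higher. Over the 27 pairs with windows at least 75% identical, both genes were called in opposite directions in 7 pairs in bourgeonal and 5 in filtered air, and in the same direction in 4 and 3. The same-direction pairs of filtered air include Olfr1506 and Olfr1565, whose values were identical in every library, so their agreement was given in advance. The bourgeonal pairs include Olfr344 with Olfr341, with Olfr342 and with Olfr346, and Olfr344 was at or below background in both gates there. The sequences of the array's probes were not used here, and how far probes for one receptor bind near-identical ones was not tested.

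The gate ratios of both treatments lay close to each other. Across the 77 receptors, the gate ratios of bourgeonal pools and of filtered-air pools, which come from different mice, correlated with Pearson's r = 0.981 and Spearman's rho = 0.969, a description over genes measured in the same libraries. Of the receptors called higher, 22 were called in both treatments, 81.5% of the bourgeonal list and 84.6% of the filtered-air list. Of those called lower, 22 were called in both, 84.6% of the bourgeonal list and 95.7% of the filtered-air list. No receptor called in one treatment had a ratio of the opposite sign in the other. The receptors called higher in bourgeonal alone were Olfr1275, Olfr1276, Olfr351, Olfr357 and Olfr48, and those called lower in bourgeonal alone were Olfr1280, Olfr1311, Olfr153 and Olfr344. In filtered air alone Olfr1309, Olfr1506, Olfr1565 and Olfr361 were called higher and Olfr338 lower. These names were listed after their values were seen, and a call in one treatment alone does not show a difference between treatments. The bourgeonal call of Olfr1275 was lost without bourgeonal pool 2 (limma adjusted p = 0.0669). The filtered-air call of Olfr1309 was lost without filtered-air pool 2, 3 or 4 (0.0688, 0.120 and 0.0699), and it passed in bourgeonal too without bourgeonal pool 3 (0.0255). Without the pool as a block that filtered-air call was lost as well (0.0608). Olfr1309 also passed in bourgeonal with libraries centred (0.00574) and with a trended, robust prior (0.0317). Olfr1275 passed in filtered air with libraries centred (0.0294), and Olfr1311 passed there without bourgeonal pool 1 (0.0428).

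**Figure D4:**
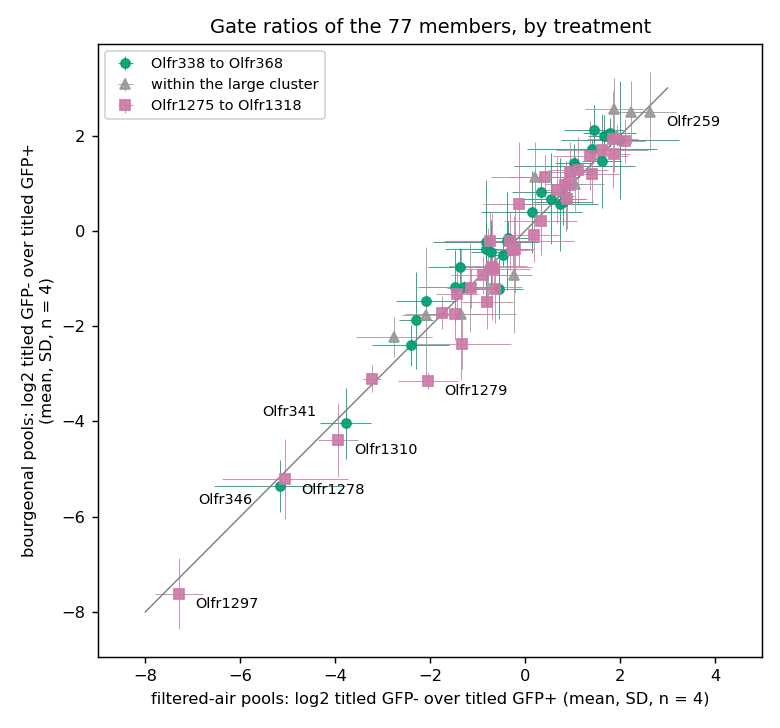
Mean log2 gate ratio of each of the 77 receptors in bourgeonal pools (vertical axis) and filtered-air pools (horizontal axis), with SD over 4 pools each and the line of equality. Green circles are the Olfr338 to Olfr368 cluster, grey triangles the receptors inside the large cluster and pink squares the Olfr1275 to Olfr1318 cluster. The points follow the line from Olfr1297 at the lower left to Olfr259 at the upper right, and Olfr1279 lies below it.

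The difference itself, bourgeonal minus filtered air, was tested as an interaction, to ask whether the odorant moved a receptor between gates. It passed for 0 of 77 receptors (limma, adjusted p under 0.05), as it did for 0% of all genes. At an unadjusted p under 0.05 there were 2, where 3.85 of 77 would be expected by that threshold alone. With a trended, robust prior there were 0 adjusted and 4 unadjusted, without the pool block 0 and 3, and with the replicate number as a block 0 and 9. The differences ran from -1.10 to 0.92 with a median of 0.06, beside 0.13 for the other odorant receptors and 0.02 for all genes. The 95% interval lay within 1 log2 unit of 0 for 25 of 77 receptors, and over all of them the intervals reached from -2.09 to 2.10, with a median width of 1.65. For the remaining receptors the interval from 4 pools a treatment also held changes of more than 2-fold. Olfr16, a receptor outside the list, had a difference of 4.57, and it did not pass either (adjusted p = 0.467).

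Olfr1279 had the smallest p in that comparison. It measured 3.50, 3.92, 3.62 and 3.58 in bourgeonal libraries titled GFP-, against 6.72, 7.21, 6.52 and 6.77 in those titled GFP+, and 3.72, 4.32, 3.41 and 3.83 in filtered-air libraries titled GFP-, against 5.16, 7.03, 4.97 and 6.29 in those titled GFP+. On the side titled GFP- it was at or below background in both treatments, and on the side titled GFP+ the filtered-air libraries were spread over 2 log2 units while the bourgeonal ones were not. The gate ratio was -3.15 ± 0.21 in bourgeonal and -2.04 ± 0.21 in filtered air (limma adjusted p = 1.57e-06 and 4.60e-05), bounds of at least 3.99-fold and at least 1.97-fold lower. The SD of the ratio over the pools of a treatment was 0.17 in bourgeonal and 0.63 in filtered air. The fitted difference, which takes the dim sides at their measured values, was -1.10 on the log2 scale (95% interval -1.75 to -0.46, limma adjusted p = 0.823). The ratios of the bourgeonal and filtered-air pools did not overlap, which held for 1 of 77 receptors and for 3.49% of all genes, 1.60% with bourgeonal lower and 1.89% with bourgeonal higher.

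Olfr1313 was next by p. It measured 4.51, 5.58, 4.25 and 4.49 in bourgeonal libraries titled GFP-, against 6.57, 7.51, 7.36 and 6.90 in those titled GFP+, and 5.63, 5.29, 5.55 and 5.47 in filtered-air libraries titled GFP-, against 6.17, 8.0, 6.11 and 6.99 in those titled GFP+. Its mean in bourgeonal libraries titled GFP- was below the background guide, so the bourgeonal ratio has only a bound, at least 4.15-fold lower. The fitted difference, which takes that dim side at its measured value, was -1.05 (95% interval -2.09 to -0.01, adjusted p = 0.859), and the ratios of the pools overlapped. The 4 that followed were Olfr353 at 0.61, Olfr1295 at -0.69, Olfr348 at 0.69 and Olfr1275 at 0.72, none of which passed. Olfr48, with the most positive difference, stood at 0.92 with a 95% interval from -0.14 to 1.98.

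**Figure D5:**
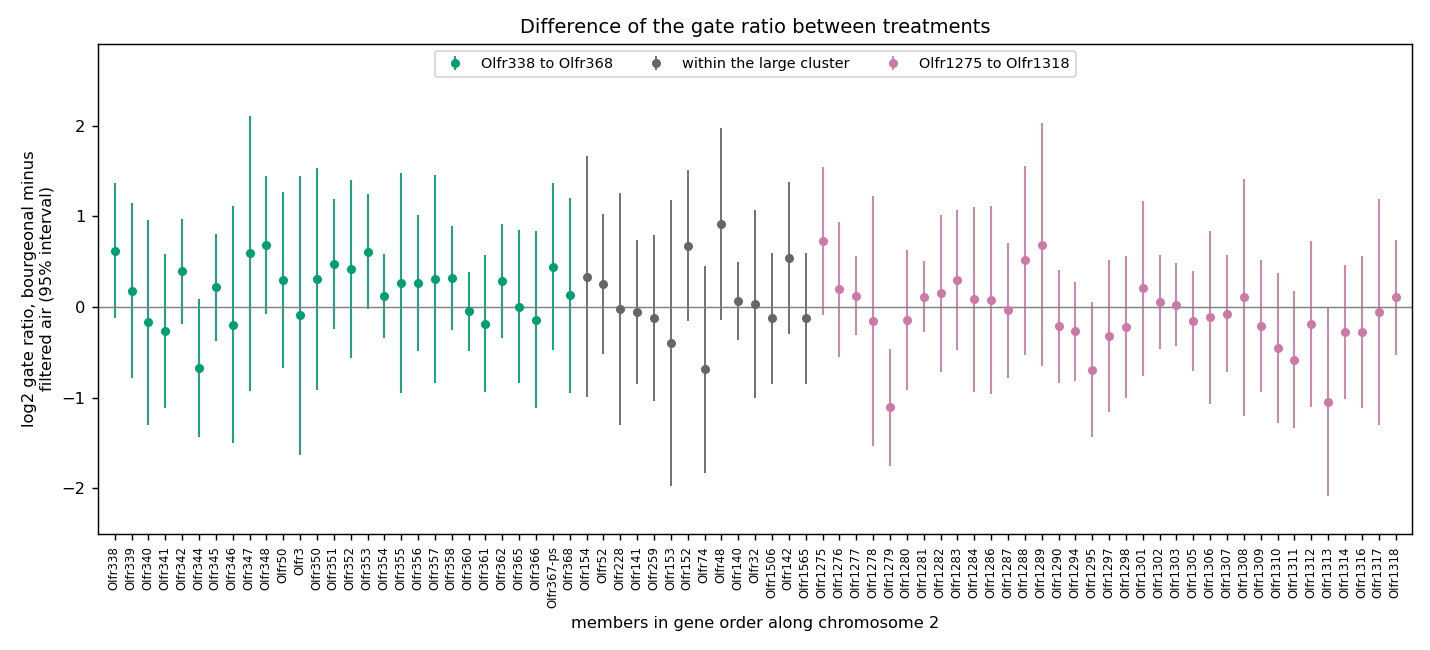
Difference of the log2 gate ratio, bourgeonal minus filtered air, for each receptor in gene order along chromosome 2, with its 95% interval from the limma fit, coloured by position. All intervals but 2, those of Olfr1279 and Olfr1313, cross 0, and the points run from -1.10 at Olfr1279 to 0.92 at Olfr48.

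Bourgeonal was also set against filtered air within each gate, where the question is whether the level of a receptor changed. In libraries titled GFP-, 0 of 77 receptors passed (limma, smallest adjusted p = 0.996), beside 0% of all genes, with 6 at an unadjusted p under 0.05 and 8 with a trended, robust prior. Olfr1294 measured 10.79, 10.85, 10.73 and 11.02 in bourgeonal libraries titled GFP-, against 11.67, 11.17, 11.10 and 11.64 in filtered-air libraries titled GFP-, a difference of -0.55. Every bourgeonal library was below every filtered-air library for Olfr1294 and for Olfr1298, 2 of 77 receptors, where 2.81% of all genes did not overlap and 1.25% did so with bourgeonal lower and 1.56% with bourgeonal higher. The other receptors with the smallest p were Olfr1313 at -0.78, Olfr1311 at -0.92 and Olfr1301 at -0.73, all lower in bourgeonal and none past the test.

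In libraries titled GFP+, 0 of 77 passed (limma, smallest adjusted p = 0.999), beside 0.0103% of all genes, with 4 at an unadjusted p under 0.05 and 4 with a trended, robust prior. With the replicate number as a block, 0 passed as well (smallest adjusted p = 0.778), with 7 unadjusted. Olfr1301 measured 9.99, 9.83, 10.04 and 10.46 in bourgeonal libraries titled GFP+, against 11.49, 11.18, 10.17 and 11.25 in filtered-air libraries titled GFP+, a difference of -0.94. The third filtered-air library lay among the bourgeonal ones. Olfr1279 at 0.94, Olfr1308 at -0.64 and Olfr352 at -0.60 had the next smallest p and did not pass. For 0 of 77 receptors did the bourgeonal and filtered-air libraries titled GFP+ stand apart without overlap, where 2.35% of all genes did, 1.24% with bourgeonal lower and 1.11% with bourgeonal higher. Olfr1301 was therefore lower with bourgeonal on both sides of the sort, at -0.73 and -0.94, without passing on either.

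Some receptors were too dim to be followed. In bourgeonal 5 receptors (Olfr344, Olfr345, Olfr367-ps, Olfr74 and Olfr1314) were at or below the background guide in both gates, and 8 more were so in libraries titled GFP- alone. In filtered air 4 were so in both gates, the same without Olfr367-ps, and 11 in libraries titled GFP- alone. These 5 were named after their values were seen, and no fold is given for them, although Olfr344 is among the 26 called lower in bourgeonal. One of them, Olfr74, is the receptor described in mouse as mOR-EV, for its response to ethyl vanillin.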

How the data were processed

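RNA of sorted olfactory mucosa cells was measured on Clariom S arrays in 16 libraries. The authors deposited log2 values. Per the submitters' processing notes these came from Affymetrix Expression Console, whose version is not given in the sources used here, nor are the summarisation and the build. Hybridisation spike-ins had means of 8.60, 10.44, 11.64 and 13.31 for bioB, bioC, bioD and cre, a rising order that does not by itself settle the log base. Arrays have no read depth, so the number of libraries limits the precision, and values near background compress ratios.

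Of 28846 probe sets, controls (6546 with neg or pos in the ID and 31 for spike-ins and background) were left out, as were 2697 without a gene name. The remaining 19572 each named 1 gene. Keeping the highest mean per gene set 67 aside and left 19505 genes. All 77 genes described (100%) matched RefSeq (GRCm38.p6) by Entrez ID. A gap of over 1 Mb between receptors started a new cluster, and 0.5 Mb gave the same 3 groups.

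Groups follow the titles. One limma 3.58.1 fit (R 4.3.3, lmFit and eBayes) of the 16 libraries, blocked by pool, gave the gate ratios and their difference. For each gene it used a single residual variance for both treatments. Since 24 mice in groups of 3 make 8 pools, the gates of a pool were taken as the same mice. Their deviations from group means correlated at 0.135 to 0.287 in bourgeonal and 0.098 to 0.201 in filtered air. Odor was set against vehicle in the 8 libraries of each gate with no block. Libraries of one number correlated across treatments at 0.157 to 0.210 when titled GFP+ and at 0.088 to 0.161 when titled GFP-. The blocked alternative took libraries of one number as paired, in both gates and in the difference. All tests had 2 sides, p-values were adjusted by Benjamini-Hochberg over 19505 genes, and the threshold was 0.05. The fit was tested on simulated data first.

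The receptors named are the 10 with the highest mean, the 10 highest and 10 lowest called ratios in filtered air, the 6 with the smallest p in the difference and 4 in each gate, and the neighbouring pairs with the 3 largest and 3 smallest gaps in filtered air, 40 in all. The genes, lists and rule were chosen with earlier results of these data known. Alternatives were no block, the replicate number as a block, centring, quantile normalisation, a filter on dim genes, a trended and robust prior, every probe set, leaving out each pool and a threshold of 0.01.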

Additional observations from a re-analysis of the deposited data

Results flagged for a closer look

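Among 160 groups of 4 libraries of the named receptors, 6 held a library far from the other 3 by Dixon's test, and chance alone gives about 1 in 20. Olfr362 had 11.08 in filtered-air library 1 titled GFP-, below the others at 11.62 to 11.71. Olfr1278 had 9.01 in filtered-air library 1 titled GFP+, below 10.28 to 10.45, and Olfr1275 had 9.20 in the same library, below 10.00 to 10.08. Olfr1286 had 6.53 in filtered-air library 4 titled GFP+, above 6.00 to 6.07, and Olfr154 had 7.54 in the same library, above 6.27 to 6.47. Olfr1298 had 9.57 in bourgeonal library 3 titled GFP-, below 10.24 to 10.36. Of the calls of these receptors, that of Olfr154 and that of Olfr1275 in bourgeonal depended on single pools, as given above.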

How the results depend on the processing

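The counts of receptors called in the gate ratio stayed within 1.5 times of those reported under every alternative. Leaving out each pool in turn gave 42 to 54 in bourgeonal and 38 to 50 in filtered air, and the other settings gave 39 to 56 and 35 to 52, the lowest with a threshold of 0.01. Without the pool as a block (no replicate block), 50 passed in bourgeonal, 26 higher and 24 lower, and 43 in filtered air, 22 higher and 21 lower. The difference between treatments and both comparisons within a gate had 0 calls under all alternatives run, the replicate block by number included. That block was run for both gates and for the difference, which had 0 calls without it too, so it changed no call of these receptors.

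Centring libraries gave 56 calls in bourgeonal, 33 higher and 23 lower, and 52 in filtered air, 32 higher and 20 lower. Over all genes it gave 12174 calls in bourgeonal and 12023 in filtered air, against 3521 and 3156 as deposited, 10624 and 10501 of them higher. Of the values of named receptors under alternatives, 2571 kept their direction and side of the threshold, 64 lost the call (15 results), 5 gained one (3 results) and 0 reversed. Signal over background limits the receptors that are dim on one side, whose folds are bounds.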

Other observations

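In libraries titled GFP-, Olfr3 and Olfr365 were both lowest in the pool numbered 1, in each treatment. Olfr3 had 10.24 in bourgeonal library 1, with the others at 11.87 to 12.51, and 10.40 in filtered-air library 1, with the others at 12.27 to 12.67. Olfr365 had 7.51 in bourgeonal library 1, with the others at 8.82 to 9.34, and 7.21 in filtered-air library 1, with the others at 8.82 to 9.63. In libraries titled GFP+ the pool numbered 1 was lowest for Olfr365 and not for Olfr3.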
